A study of Nothobranchius furzeri with 20 samples.

Results

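The genes described here are 62 gene identifiers of the turquoise killifish (Nothobranchius furzeri) whose brain level lay higher at 14 than at 5 weeks of age and whose largest gain came early, between 5 and 7 weeks. They were chosen from the deposited read counts, scaled by each library's column sum to CPM (counts per 1000000 counts). A gene had to average at least 1 CPM over 20 libraries, and every 14-week library had to lie above every 5-week library. The mean of log2(CPM + 0.5) was then taken per age, and the largest of the 3 steps between successive ages had to be the one from 5 to 7 weeks. Of 26739 identifiers, 17994 averaged at least 1 CPM (here called expressed genes), 327 (1.82%) also passed the separation of 14 from 5 weeks, and 62 had their largest step from 5 to 7 weeks. These values chose the genes, so levels and differences between ages below describe the 62 genes and do not test them.

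All libraries were made from brain of male fish of the GRZ strain. The groups were 5, 7, 10 and 14 weeks of age, with 5 libraries each. The labels name no treatment and no allele, and they do not say whether brains were pooled, so p-values measure only the spread between these libraries, which may be partly technical. Gene identifiers in the files carry no gene names, and 0 of 26739 were found in the RefSeq gene table of this species. No function can therefore be given to any of the 62 genes, the brain label could not be set against marker genes, and no sequence is shown.

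The turquoise killifish lives in seasonal ponds and is kept in laboratories as a very short-lived vertebrate, and GRZ is an inbred strain known for its short life. Fish of this species grow fast and mature within weeks. Their brain, like that of other teleosts, continues to grow in young adults. Libraries were made from whole tissue RNA, in which more cells of a type and more RNA per cell cannot be told apart.

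Total counts ran from 12004412 to 30723528 per library. The 62 genes took 0.486% to 0.713% of a library's counts, and the lowest count of any of them in any library was 9. Libraries differed in ways that age does not give. In 5-week replicate 5 the median expressed gene lay 0.14 above its 5-week mean on the log2 scale, against -0.08 to 0.0016 in the other 5-week libraries. In 7-week replicate 3, 20.5% of expressed genes stood apart from the other 7-week libraries by Dixon's criterion (a gap above 0.71 of the range of 5 values), against 0.172% to 1.12% in the other libraries of that age.

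The steps were small. From 5 to 7 weeks the 62 genes had a median step of 0.31 on the log2 scale, with quartiles of 0.22 and 0.42 and extremes of 0.09 and 0.74. The median over all expressed genes was -0.04. Mean CPM at 7 weeks was 1.07 to 1.71 times that at 5 weeks, with a median of 1.25. Only 6 of the 62 genes had a step of at least 0.5, and 11 had one below 0.2. After 7 weeks little was added: the median step was 0.06 from 7 to 10 weeks and 0.04 from 10 to 14 weeks, against 0.04 and 0.02 over all expressed genes.

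By the rule, the first step is the largest of the 3 in each of these genes, so the share of the 14 to 5 week difference present at 7 weeks is bounded by the choice. Mean CPM at 14 weeks was 1.09 to 2.16 times that at 5 weeks, with a median of 1.33. The 5 to 7 week step was a median of 68.5% of the log2 difference between 14 and 5 weeks, with quartiles of 60.11% and 86.0%. In 8 genes (12.9%) the 14-week mean lay below the 7-week mean, against 43.0% of all expressed genes. A difference of at least 1 on the log2 scale between 14 and 5 weeks was reached by 1 gene. That gene, of 1164 bases, had 9.09, 9.97, 11.9, 12.4 and 15.2 CPM at 14 weeks, against 3.32, 4.53, 4.80, 5.58 and 8.91 CPM at 5 weeks. Its lowest 14-week library lay just above its highest 5-week library.

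**Figure D1:**
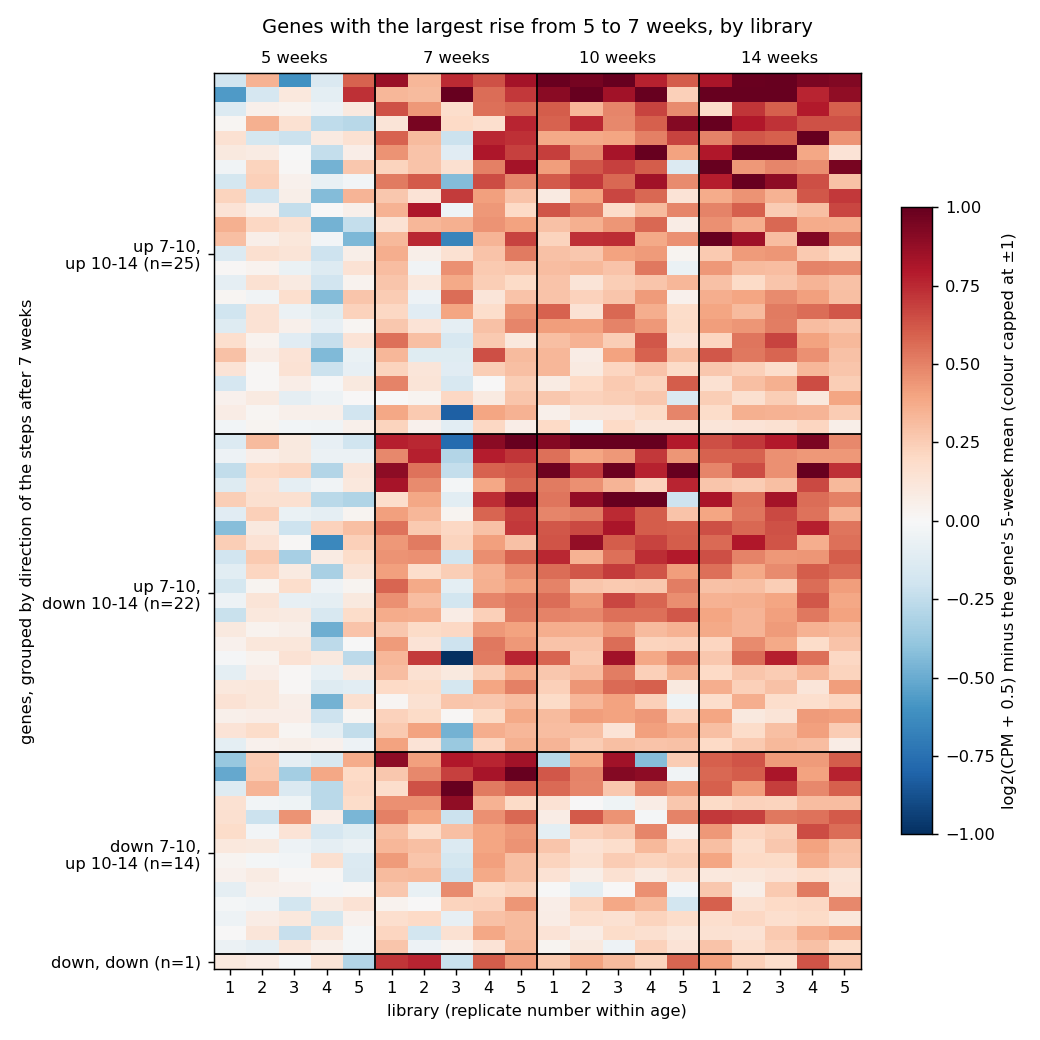
Levels of the 62 genes (rows) in the 20 libraries (columns, by age and replicate), as log2(CPM + 0.5) minus the gene's own 5-week mean, with colour capped at ±1. Rows are grouped by the direction of the steps after 7 weeks (25, 22, 14 and 1 genes) and sorted by the 5 to 7 week step; the column of 7-week replicate 3 is pale or blue in many rows whose other 7-week libraries are red.

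A pair of genes is shown in full, the first for the size of its step and the second for its abundance. Nfu_g_1_024570 had the largest 5 to 7 week step among the genes that averaged at least 10 CPM. At 5 weeks its libraries had 4.75, 8.48, 5.42, 9.30 and 8.08 CPM. At 7 weeks they had 8.52, 9.92, 11.5, 12.7 and 17.4 CPM, so that 4 libraries lay above every 5-week library and replicate 1 did not. At 10 weeks it was at 11.02, 10.04, 13.6, 13.4 and 6.80 CPM. At 14 weeks it was at 10.6, 10.9, 12.7, 9.40 and 12.2 CPM. The 10-week libraries overlapped with the 5-week libraries through replicate 5, and the 14-week libraries began just above them. Means were 7.21 ± 1.998, 12.02 ± 3.41, 10.98 ± 2.80 and 11.2 ± 1.31 CPM (SD, n = 5 each) at 5, 7, 10 and 14 weeks. The fitted log2 fold change was 0.77 ± 0.22 (SE) for 7 against 5 weeks and 0.64 ± 0.22 for 14 against 5 weeks. The gene was called in neither comparison at an adjusted p below 0.05 in the edgeR fit described below. Its solved gene length is 9140 bases, and per length it was the lowest of the 62 genes, at 1.13 RPKM (CPM per kilobase of gene, recomputed with each library's own total).

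Nfu_g_1_005688 had the highest mean of the 62 genes, 1015 CPM, and ranked 52nd among all expressed genes. At 5 weeks its libraries had 900.4, 910.6, 910.8, 753.8 and 881.1 CPM, with replicate 4 below the rest. At 7 weeks they had 1022.2, 992.5, 878.6, 991.4 and 1127.6 CPM, with replicate 3 inside the 5-week range and the others above it. At 10 weeks they had 1083.6, 1161.4, 1148.7, 1175.5 and 1021.7 CPM, all above the 5-week libraries. At 14 weeks they had 1140.7, 932.4, 951.4, 1169.6 and 1154.0 CPM, in a pair near the 5-week range and a group of 3 well above it. Means were 871.3 ± 66.8, 1002.4 ± 88.9, 1118.2 ± 64.4 and 1069.6 ± 117.3 CPM (SD, n = 5 each) at 5, 7, 10 and 14 weeks. The fitted log2 fold change was 0.24 ± 0.098 (SE) for 7 against 5 weeks, 0.39 ± 0.098 for 10 against 5 weeks and 0.31 ± 0.098 for 14 against 5 weeks. In the same edgeR fit the gene was called only for 10 against 5 weeks. Its solved length is 4976 bases and its level per length was 204.1 RPKM, the highest of the 62 genes.

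**Figure D2:**
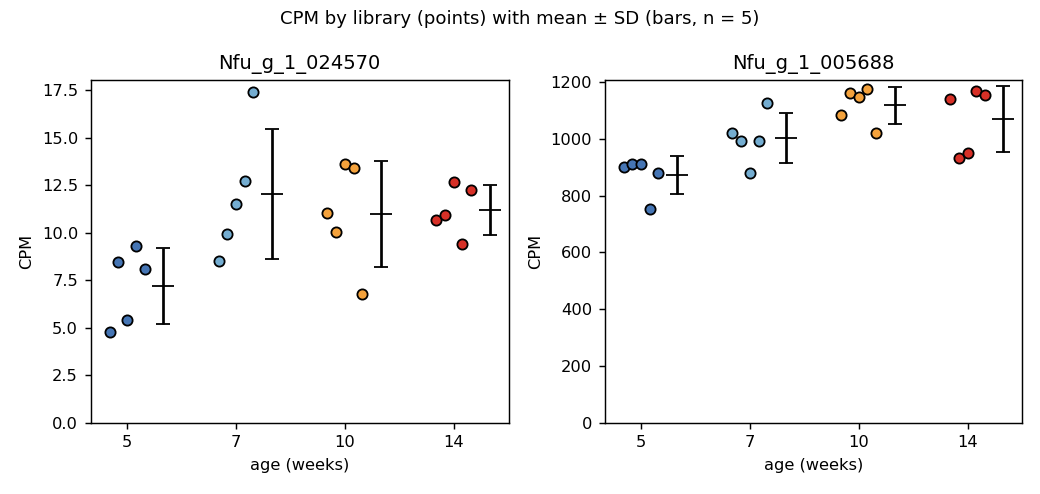
CPM of Nfu_g_1_024570 (left) and Nfu_g_1_005688 (right) by age in weeks; each point is 1 library in replicate order, and the bar beside it gives the mean ± SD of 5 libraries. In Nfu_g_1_024570 the 7-week libraries range from 8.52 to 17.4 CPM and the 14-week libraries from 9.40 to 12.7 CPM; in Nfu_g_1_005688 the 5-week mean of 871.3 CPM is the lowest of the 4 ages.

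Both genes were also compared with other genes in their course within ages. Likeness was measured by Pearson's r of log2(CPM + 0.5) after the age mean was taken off, over the 20 libraries. These values share library depth and any library that stands apart, and are given as a description. For Nfu_g_1_024570 the closest of the other 61 genes reached r = 0.70, and 40 of the 61 had a positive r. The median over them was 0.07, against -0.009 over all expressed genes. For Nfu_g_1_005688 the closest reached r = 0.75, and 57 of the 61 had a positive r. The median was 0.32, against 0.04 over all expressed genes. Among all expressed genes 7 had an r of at least 0.8 with Nfu_g_1_024570 and 42 with Nfu_g_1_005688, and 0 of these were among the 62. Because the 62 genes are 0.345% of all expressed genes, that 0 says little about them.

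After 7 weeks the genes took 3 main courses. Both later steps were positive in 25 genes, with medians of 0.08 from 7 to 10 weeks and 0.09 from 10 to 14 weeks; their levels spanned 1.68 to 463.4 CPM. In 22 genes a positive step to 10 weeks (median 0.16) was followed by a negative one to 14 weeks (median -0.06), and these had the highest mean at 10 weeks. In 14 genes the level at 10 weeks lay below that at 7 weeks (median -0.08) and the level at 14 weeks above that at 10 weeks (median 0.14). In 1 gene both later steps were negative. Of all expressed genes, 4.98%, 14.7%, 14.0% and 7.39% had a positive first step followed by these courses, in the same order. The share of the 14 to 5 week difference already present at 7 weeks was a median of 59.97% in the first course, 75.5% in the second and 89.1% in the third. Later steps enter this share, and the courses were sorted by their direction, so its order follows in part from the sorting. The rule bounds both later steps by the first, which limits how far any of these courses could climb.

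Single genes show how wide these courses were. The gene with the largest 5 to 7 week step of all, of 2891 bases, had 3.96, 4.69, 4.93, 6.41 and 7.00 CPM at 5 weeks and 7.21, 9.34, 9.57, 9.84 and 10.3 CPM at 7 weeks, without overlap. At 10 weeks it had 3.82, 4.28, 6.42, 7.13 and 9.87 CPM, spread over both of those ranges, and at 14 weeks 7.28, 7.28, 8.28, 8.32 and 8.44 CPM. It thus had the largest negative step from 7 to 10 weeks, of -0.58. The gene with the largest positive step from 7 to 10 weeks, 0.48, also had the largest negative one from 10 to 14 weeks, -0.31. It had 63.2 to 90.9 CPM at 5 weeks. At 7 weeks it had 123.2, 124.9, 136.2 and 150.3 CPM in 4 libraries and 42.5 CPM in the remaining one, below every 5-week library. It had 126.2 to 175.7 CPM at 10 weeks and 101.7 to 139.9 CPM at 14 weeks. The gene with the smallest difference between 14 and 5 weeks, 0.13, had 228.3 to 238.7 CPM at 14 weeks and 192.3 to 224.8 CPM at 5 weeks, ranges that were narrow and close to each other.

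The 7-week libraries did not all share the gain. The median of the 62 genes, relative to each gene's 5-week mean on the log2 scale, was 0.33, 0.29, 0.39 and 0.44 in 7-week replicates 1, 2, 4 and 5 and -0.0010 in replicate 3. Replicate 3 was the lowest 7-week library in 38 genes and the highest in 8. It lay below the 5-week mean in 31 of the 62 genes, against 0 to 7 genes in the other 7-week libraries. Of all 17994 expressed genes, 9941 lay below their 5-week mean in replicate 3, and 8960 to 10458 did in the other 7-week libraries. In replicate 3 the share of the 62 genes below was thus near that of all genes. The values of the 62 genes in replicate 3 were also the most scattered, from -0.996 to 1.402 relative to the 5-week mean. Every 7-week library exceeded every 5-week library in 4 genes, where 0.306% of all expressed genes did so. In 36 genes 4 of the 5 libraries did (6.42% of all expressed genes), and the lacking library was replicate 3 in 27 of these, replicate 2 in 7 and replicate 1 in 2. Replicate 3 was also the usual lacking library among all expressed genes. There, 1155 genes had 4 of the 5 libraries above. The 7-week libraries other than replicate 3 were all above in 1113 genes, of which 55 had all 5 above. Without replicate 3 the median step from 5 to 7 weeks was 0.36, against 0.31 with it. The part that this library's broader departure had in its low values was not tested.

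The other ages were tighter. Library medians were 0.29 to 0.43 at 10 weeks and 0.37 to 0.43 at 14 weeks, and the mean over libraries was 0.36 ± 0.061 and 0.40 ± 0.021 (SD, n = 5 each), against 0.29 ± 0.17 at 7 weeks. At 5 weeks the medians ran from -0.09 in replicate 4 to 0.08 in replicate 2. Replicate 4 was the lowest 5-week library in 26 of the 62 genes. The median of all expressed genes in that library was also low, at -0.08. The share of all expressed genes that were lowest in it was not counted. The median expressed gene stayed between -0.08 and 0.0066 in all libraries but 5-week replicate 5. Numbers in the sample titles put 7-week replicates 1 to 3 (48, 53 and 55) before the 10-week libraries (57 to 62) and replicates 4 and 5 (64 and 65) after them. The labels do not say what these numbers stand for.

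**Figure D3:**
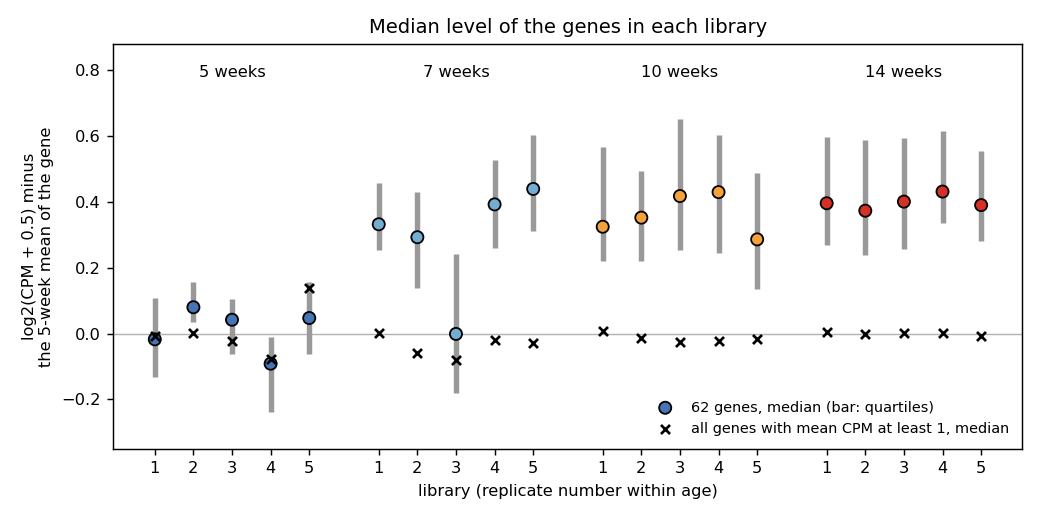
Median of the 62 genes in each library (circles, with bars from the first to the third quartile), as log2(CPM + 0.5) minus the gene's 5-week mean, with the median of all 17994 expressed genes as crosses. The circles of 7-week replicate 3 (-0.0010) and of the 5-week libraries lie near 0, and those of the other libraries between 0.29 and 0.44.

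Tests over all genes gave few calls for the step that defines the group. Counts were fitted with edgeR's quasi-likelihood model, with 1 mean per age over all 20 libraries, and a gene was called at a Benjamini-Hochberg adjusted p below 0.05 over 19474 tested genes; all 62 genes were tested. For 7 against 5 weeks 0 of the 62 were called higher, where 0.0154% of all genes were. At an unadjusted p below 0.05, 47 of the 62 were higher, where 11.9% of all genes passed in either direction. DESeq2 called 15 of them higher (0.565% of all genes) and limma-voom 0 (0.0154%). Without 7-week replicate 3 edgeR called 16 (0.577% of all genes). Without the 3 libraries that correlate least with the others (7-week replicate 3, 5-week replicates 4 and 5) it called 8 (0.153% of all genes).

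Against the same 5-week libraries, more of the 62 genes were called at the later ages. For 10 against 5 weeks 27 were called higher (2.13% of all genes), with fitted log2 fold changes of 0.28 to 1.05 and standard errors of 0.08 to 0.26. For 14 against 5 weeks 20 were called higher (1.0% of all genes), with fold changes of 0.36 to 1.15 and standard errors of 0.09 to 0.26. The median fitted log2 fold change of the 62 genes was 0.35 at 7, 0.39 at 10 and 0.42 at 14 weeks, each against 5 weeks. All 3 comparisons share the 5-week libraries, and the rule chose the genes on their values. A slope over age in weeks was called positive in 13 genes (2.03% of all genes), by 0.04 to 0.11 on the log2 scale per week, and any difference over the 4 ages in 21 (7.19% of all genes). Of the 27 genes called at 10 weeks, 17 belonged to those that rose to 10 weeks and fell to 14 weeks. The other 10 had both later steps positive, and the 14 genes that dipped at 10 weeks gave 0. The courses were sorted by the direction of the step to 10 weeks, so this split follows in part from the sorting.

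The number of calls moved with single libraries, among the 62 and among all genes. Calls that held whichever library was left out were counted in the 62 only, so those counts have no share of all genes beside them. Of the 20 genes called at 14 weeks, 3 were called whichever library was left out, and the number of the 62 called ran from 4 without 14-week replicate 1 to 35 without 7-week replicate 3. It was 5 without 5-week replicate 4 or 14-week replicate 3 or 4 (0.153% to 0.240% of all genes) and 7 without 5-week replicate 1 (0.382%). It was 10 to 12 without 14-week replicate 2 or 5 or 10-week replicate 1 or 2 (0.556% to 0.873%). Without 5-week replicate 5 it was 13, though the share of all genes, 1.53%, was above the 1.0% with all libraries. Among all genes the share called higher at 14 weeks was 0.199% without 14-week replicate 1 and 2.20% without 7-week replicate 3, with its lowest value, 0.153%, without 5-week replicate 4. At 10 weeks 12 of the 27 were called in every such fit. The number called ran from 12 without 10-week replicate 3 (0.459% of all genes) to 37 without 7-week replicate 3 (5.21% of all genes). It was 14 or 15 without 5-week replicate 1 or 4 or 10-week replicate 1, 2 or 4 (0.740% to 0.964% of all genes). Without 5-week replicate 5 it was 17 (2.14% of all genes). Of the 13 genes with a called slope 0 were called in every such fit. The number called ran from 1 without 5-week replicate 4 (1.02% of all genes) to 16 without 7-week replicate 3 (2.76% of all genes). It was 2 to 8 without any one of 5-week replicates 1, 2, 3 and 5, 10-week replicates 1 to 4 or 14-week replicates 1 to 4. In those fits the share of all genes ran from 0.618% without 14-week replicate 4 to 2.85% without 5-week replicate 5.

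Between the later ages themselves, edgeR on all 20 libraries with TMM scaling called 0 of the 62 genes. For 10 against 7 weeks 0 were called (1.14% of all genes were higher and 1.61% were lower). At an unadjusted p below 0.05 by edgeR, 4 had a positive difference and 2 a negative one (17.7% of all genes in either direction). DESeq2 called 0 higher and 1 lower (2.39% and 4.05% of all genes), and limma-voom 0 (1.17% higher and 1.17% lower). In that comparison edgeR called 1 lower with DESeq2's size factors (1.79% of all genes were lower), 1 when 7-week replicate 5 was dropped (2.21%), 1 when 10-week replicate 5 was dropped (1.63%), and 2 lower without the 3 least correlated libraries (2.88%). For 14 against 7 weeks 0 were called (1.45% of all genes were higher and 1.04% were lower). By edgeR 1 had an unadjusted p below 0.05, with a negative difference (17.5% of all genes in either direction). DESeq2 called 0 (2.92% of all genes were higher and 2.59% lower), and limma-voom 0 (1.68% higher and 1.01% lower). For 14 against 10 weeks 0 were called (0.0976% of all genes were higher and 0% were lower). By edgeR 0 passed an unadjusted p below 0.05 (6.08% of all genes did). DESeq2 called 0 (0.434% of all genes were higher and 0.0517% lower), and limma-voom 0 (0% higher and 0% lower). The median fitted log2 fold change was 0.05 for 10 against 7 weeks, 0.07 for 14 against 7 weeks and 0.01 for 14 against 10 weeks. The rule kept out genes whose later steps exceeded the first, so these counts are bounded by the choice.

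Separation between libraries was counted in the same way. All 10-week libraries lay above all 5-week libraries in 28 of the 62 genes, where 5.60% of all expressed genes did so, and 4 of the 5 did in 22 more (5.01% of all expressed genes). All 10-week libraries lay above all 7-week libraries in 1 gene (3.43% of all expressed genes). No gene had all 14-week libraries above all 7-week or all 10-week libraries (0 of 62, against 3.33% and 1.52% of all expressed genes). The rule asked for low 5-week libraries and bounded the later steps by the first. These counts are therefore shaped by the choice and test nothing.

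Genes were also chosen anew without each library in turn, and the level of the left-out library was then read in them. The left-out library had no part in that choice. The libraries it was set against did, the 5-week libraries among them, so a difference from their mean still carries the selection on their side. With a 7-week library left out, 44 to 114 genes were chosen. Relative to the 5-week mean, their median in the left-out library was 0.31, 0.16, 0.38 and 0.40 in replicates 1, 2, 4 and 5, against 0.29 to 0.31 in the 7-week libraries used, and it was -0.19 in replicate 3, against 0.35 in the 4 libraries used. In replicate 3 only 34 of the 114 genes lay above the 5-week mean.

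The 5-week libraries behaved differently in the same reading. With replicate 1, 2 or 3 left out, 96 to 108 genes were chosen, and the left-out library lay 0.13 to 0.19 above the mean of the 5-week libraries used, closer to the 7-week mean (0.11 to 0.15 below it) than the 0.30 to 0.32 that separated the 7- and 5-week libraries used. With replicate 4 left out, 65 genes were chosen and it lay 0.35 below the 7-week mean. With replicate 5 left out, 245 genes were chosen and it lay 0.17 above the 7-week mean; the median of all expressed genes in that library was 0.18 above as well. The number of genes chosen thus moved most without 5-week replicate 5, and of the 62 genes 55 were among the 245. That library had the lowest depth, and its TMM scaling factor was 1.149, against 0.947 to 1.014 in the other libraries. It also had counts in the most identifiers, 22938, against 21385 to 21862 in the others. The part that any of these had in the number chosen was not tested.

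The 10- and 14-week libraries were read in the same way. At 10 weeks 59 to 68 genes were chosen, and the left-out library lay 0.30 to 0.44 above the 5-week mean, where the libraries used lay 0.35 to 0.37 above. At 14 weeks 74 to 83 genes were chosen without replicates 1 to 4, and the left-out library lay 0.34 to 0.40 above, where the libraries used lay 0.39 to 0.41 above. Without 14-week replicate 5, 113 genes were chosen and it lay 0.19 above, against 0.43 in the 4 libraries used.

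**Figure D4:**
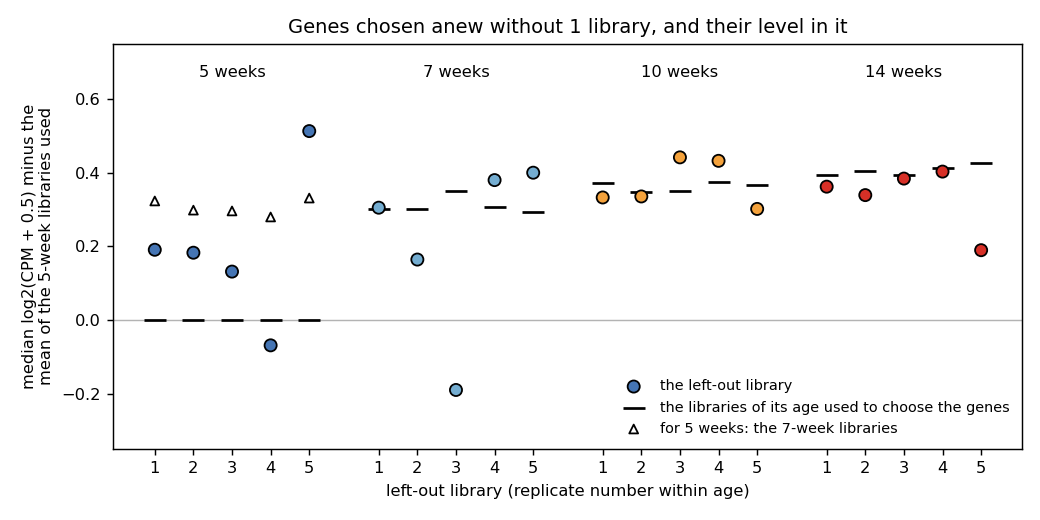
Each circle is the median level, in 1 left-out library, of the genes chosen without it, as log2(CPM + 0.5) minus the mean of the 5-week libraries used; dashes give the libraries of the same age used in the choice, and triangles, for left-out 5-week libraries, the 7-week libraries. The circle of 7-week replicate 3 lies at -0.19 and that of 5-week replicate 5 at 0.51, above its triangle at 0.33.

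The 62 genes were more abundant and longer than the median expressed gene. Their mean level had a median of 51.0 CPM, with quartiles of 18.3 and 114.1, against 20.6 CPM with quartiles of 6.54 and 55.04 over all expressed genes. At least 100 CPM was reached by 18 of the 62 (29.0%) and by 13.2% of expressed genes. Gene lengths, solved from the deposited counts and RPKM values, had a median of 4276 bases (257 to 12492), against 2779 bases over all expressed genes. Per length, the median level was 13.0 RPKM, against 8.35 RPKM. These differences were not tested, and neither was the part that counting precision has in them.

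Values for the other age-rising genes stand beside these. The 180 genes with the largest step from 7 to 10 weeks had a median level of 33.6 CPM and a median length of 4011.5 bases, and the 85 with the largest step from 10 to 14 weeks had 22.03 CPM and 3213 bases. Between 14 and 5 weeks the median log2 difference was 0.42 in the 62 genes, 0.45 in the 180 and 0.67 in the 85. The median share present at 7 weeks was 68.5% in the 62, 9.08% in the 180 and 7.75% in the 85, a difference that the rule itself sets.

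**Figure D5:**
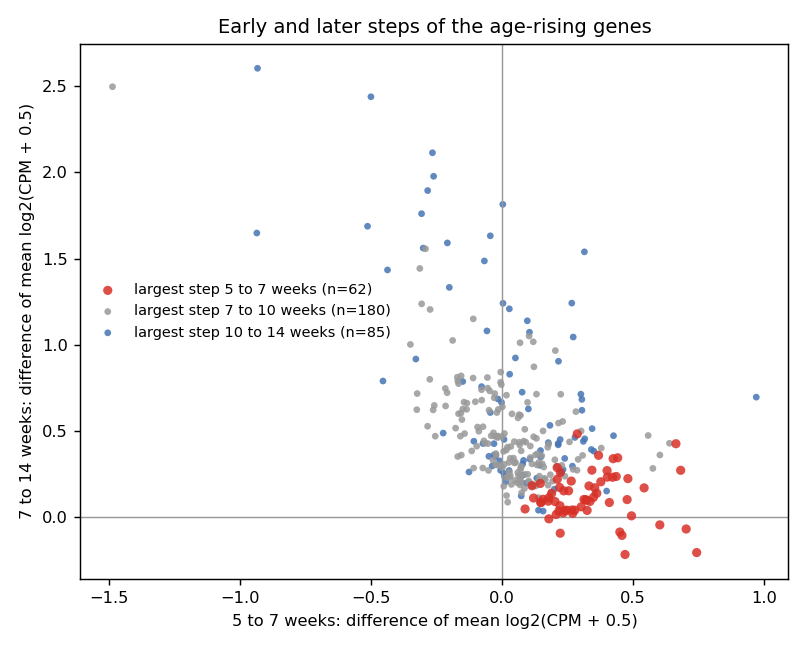
For the 327 genes with every 14-week above every 5-week library, the 5 to 7 week step (horizontal) against the difference between 14 and 7 weeks (vertical), both as differences of mean log2(CPM + 0.5), coloured by which step was largest. The 62 genes (red) lie right of 0, with later differences of -0.22 to 0.48; the rule that chose them sets this area.

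Within the group, lower and shorter genes had the larger steps. Across the 62 genes Spearman's rho of the 5 to 7 week step was -0.40 with mean CPM and -0.31 with length, where over all expressed genes it was 0.32 and 0.06. Length and mean CPM themselves had a rho of 0.53 in the 62 genes and 0.38 over all expressed genes, so their relations to the step were not told apart. These are correlations across genes that share all 20 libraries, and the separation rule admits small steps only where libraries of an age lie close together. The shortest of the 62, of 257 bases, stood at 1.76 to 3.25 CPM at 14 weeks and 0.921 to 1.34 CPM at 5 weeks. The longest, of 12492 bases, stood at 112.01 to 129.5 CPM at 14 weeks and 88.97 to 109.98 CPM at 5 weeks.

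Spread within ages lay below that of all genes at 5 and 14 weeks, the ages that the rule separates. The SD of log2(CPM + 0.5) between the 5 libraries of an age had a median over the 62 genes of 0.16 at 5, 0.25 at 7, 0.16 at 10 and 0.11 at 14 weeks. Over all expressed genes these medians were 0.26, 0.29, 0.17 and 0.20. At 7 and 10 weeks, where separation was not asked for, the medians of the 62 genes lay nearer to those of all genes. The 62 genes were also more abundant, and the parts that level and the rule have in their spread were not tested. The 7-week SD was the largest of the 4 ages in 37 of the 62 genes (59.7%) and in 46.0% of expressed genes. Without 7-week replicate 3 its median was 0.15 in both sets.

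Within ages the genes co-varied weakly. The mean pairwise r of the 62 genes, after age means were taken off, was 0.20 over the 20 libraries, and 71.97% of pairs were positive. Over all expressed genes the mean pairwise r was 0.03, and it was 0.29 and 0.14 in the genes with the largest step from 7 to 10 and from 10 to 14 weeks. All pairs share the same libraries, among them those that stand apart, so these values are a description.

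Near the limits of the rule, genes inside and outside hardly differed. The closest gene inside had steps of 0.148 from 5 to 7 and 0.145 from 7 to 10 weeks, and the closest outside had 0.188 and 0.189. For the separation of 14 from 5 weeks, the closest gene inside had a lowest 14-week library of 48.68 CPM and a highest 5-week library of 48.65 CPM, and the closest outside 106.57 and 106.59 CPM. The least abundant gene inside averaged 1.68 CPM.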

How the data were processed

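Brain RNA of 20 libraries was measured by RNA sequencing (TruSeq RNA v2, per the labels' protocols). Tools named in the submitters' processing notes are STAR 2.4.1d, featureCounts 1.4.6-p4 and CASAVA 1.8.2. For build, annotation and strandedness, the settings were not given in the sources used here. The authors deposited raw read counts per gene identifier, which the report's tests used, and RPKM values. The deposited RPKM values were checked against the counts: for genes whose RPKM summed to over 1, 99.99% of the nonzero values that fell on a known library total came out within 0.0011 when the totals of all libraries and 5 further totals were applied in rotation, and 5.40% with each library's own total. They are not comparable between libraries and served for gene lengths (21798 genes, all 62 among them) and 1 alternative.

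The 62 genes and all lists were chosen with earlier results of these data known. Counts were fitted in R 4.3.3 with edgeR 4.0.16 (TMM, filterByExpr by age, robust quasi-likelihood fit, Benjamini-Hochberg adjustment); a standard error is the log2 fold change divided by the square root of F. The code was tested on simulated data. Alternatives were DESeq2 1.42.0, limma-voom (limma 3.58.1), other scalings, filters and pseudocounts, fits of only the ages compared, and leaving out libraries. Library pairs of an age differed beyond sampling noise (chi-square per degree of freedom of at least 8.67, counting genes with 20 or more reads per pair), so none was merged. Because the files pair identifiers with no names, the rule for named genes gave 2 identifiers (the largest 5 to 7 week step among genes averaging at least 10 CPM, and the highest mean CPM), and lists of marker genes were not used. Replicate numbers follow accession order and pair nothing.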

Additional observations from a re-analysis of the deposited data

Results flagged for a closer look

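In Nfu_g_1_005688, 5-week replicate 4 stood apart from the other libraries of its age, at 753.8 CPM against 881.1 to 910.8 CPM in the other 4; the gap was 0.811 of the range. The check covered, at each of the 4 ages, both named genes, the median of the 62 genes, their share of counts and the library totals. No other group was set apart. Chance alone sets about 1 in 20 groups of 5 apart in this way, so a single such group among those checked says little. Over the 62 genes, a library stood apart at 5 weeks in 3 genes, at 7 weeks in 9, at 10 weeks in 7 and at 14 weeks in 4, and all 9 at 7 weeks were replicate 3, low in 8 of them. Over all expressed genes the shares were 12.02%, 22.9%, 7.48% and 7.08%.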

How the results depend on the processing

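The number of genes that pass the rule was 62. It was 61 to 91 with TMM-scaled CPM, age medians or pseudocounts of 0.1 and 1, 56 with a mean CPM of at least 5, 63 with no minimum, and 102 with the step taken per week; TMM scaling gave 84 genes, 46 of them among the 62. It was 331 without 7-week replicate 3 and 5-week replicates 4 and 5, and 44 to 245 with 1 library left out. The median 5 to 7 week step of the 62 genes, 0.31, was 0.34 with TMM scaling and 0.25 to 0.36 with 1 library left out. In genes chosen anew without a library and read in it, the step ran from -0.19 (7-week replicate 3) to 0.40, and was -0.17 for 5-week replicate 5; the cause was not tested.

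Counts of the 62 genes called higher depended on the fit, as did the shares of all genes called higher. For 7 against 5 weeks, where edgeR called 0 (0.0154% of all genes), DESeq2 called 15 (0.565%) and the fit without the 3 libraries 8 (0.153%). Fits with 1 library left out called 0 to 16 (0.00511% to 0.577%). For 14 against 5 weeks (20, 1.0% of all genes), DESeq2 called 36 (2.41%), the fit of only these ages 12 (0.486%) and limma-trend on deposited RPKM 1 (0.0670%). Fits with 1 library left out called 4 to 35 (0.153% to 2.20%). For 10 against 5 weeks (27, 2.13%) limma-trend on RPKM called 1 (0.124%) and fits with 1 library left out 12 to 37 (0.459% to 5.21%). A positive slope (13, 2.03%) was called in 8 with no filter on low counts (1.63%), 0 on RPKM (0.0861%) and 5 without the 3 libraries (3.797%). With 1 library left out it was called in 1 to 16 (0.618% to 2.85%). Because the deposited RPKM values are not comparable between libraries, the fits on them cannot show how the calls depend on the processing. For 14 against 7 weeks 0 were called, higher or lower, in every fit but that without the 3 libraries (1.45% of all genes higher and 1.04% lower in edgeR on all libraries). The fit without the 3 libraries called 1 lower, where 4.70% of all genes were lower. No paired analysis was run because the labels name no pairing between libraries. Depth limits the lower genes: 7 of the 62 had under 50 counts in some library.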
